A study of Mus musculus with 58 samples.

Results

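The vault is a large barrel-shaped particle of RNA and protein in the cytoplasm of most animal cells, and 3 mouse genes encode its known proteins: Mvp, Tep1 and Parp4. They were chosen by name for their place in the particle and were found in all 6 count tables. They are 3 of 54532 genes in the RNA-seq tables and 3 of 18411 genes in the tables of ribosome footprints and lysate RNA. Mvp, the major vault protein, forms the shell of the particle and makes up most of its mass. Parp4 is a member of the poly(ADP-ribose) polymerase family that binds Mvp inside the shell. Tep1 is a protein with a TROVE domain and WD repeats that binds the small untranslated vault RNA, and it was first known as a component of telomerase. Vaults have been linked to transport between nucleus and cytoplasm and to kinase and phosphatase signalling, but their essential function is not settled, and in brain they are found in neurons and glia.

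All samples were striatum of mice labelled B6129S, littermates aged 10 to 14 weeks. The 16p11.2 del/+ mice lack 1 copy of the interval that corresponds to human 16p11.2, which holds 27 genes, Mvp among them, and were compared with wt littermates. The 3g del/+ mice keep the interval but carry, on 1 chromosome, CRISPR/Cas9 frameshift mutations in Taok2, Sez6l2 and Mvp together, made in C57BL/6J zygotes, and were compared with their own wt littermates. The Mvp mutation is an insertion of 1 base in exon 2 that makes a premature stop codon, and gene counts do not separate its transcripts from those of the intact allele. RNA-seq was done on 4 males and 4 females of each genotype of each line, giving 32 libraries of about 11711100 to 65529800 counts. Ribosome footprints, the RNA fragments that ribosomes protect from nuclease, and RNA of the same lysates were sequenced from males only, from 4 wt and 3 del/+ mice of the 16p11.2 line and from 3 wt and 3 del/+ mice of the 3g line. The 13 lysate RNA libraries held about 15102600 to 19122500 counts and the 13 footprint libraries only 342052 to 678130. The unit of level is CPM, the usual count rate with every library set to the same total, with TMM scaling, an edgeR factor that corrects for composition, over all libraries of an assay. Levels are not divided by transcript length, so the levels of different genes are not compared. These are bulk samples, in which fewer cells of a type and less RNA per cell cannot be told apart.

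Mvp lies on the minus strand of chromosome 7 (GRCm38.p6, 126986860 to 127014594), Tep1 on chromosome 14 (50824059 to 50870579) and Parp4 on chromosome 14 (56575619 to 56659798). Only Mvp is in the deleted interval. Its promoter is shown because it is the regulatory sequence that 16p11.2 del/+ mice have in 1 copy and 3g del/+ mice in 2. The sequence is that of RefSeq (GRCm38.p6, chr7:127014545-127014844, minus strand), from 250 bases before to 50 bases after the start site, and capitals mark the GC box, a motif that SP family factors bind.
Mvp: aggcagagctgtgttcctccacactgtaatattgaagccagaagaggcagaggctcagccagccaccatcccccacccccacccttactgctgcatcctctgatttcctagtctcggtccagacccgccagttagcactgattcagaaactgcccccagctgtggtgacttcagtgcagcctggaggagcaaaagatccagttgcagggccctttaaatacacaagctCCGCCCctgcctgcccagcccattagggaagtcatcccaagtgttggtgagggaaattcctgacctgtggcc
The window held 1 GC box (GGGCGG on either strand), on the reverse strand, starting 22 bases before the start site, as 35.7% of 32851 promoters of this length held at least 1. It held no TATAAA, no interferon-stimulated element and no TTCNNNGAA (a STAT element) on either strand, motifs that 13.6%, 3.44% and 8.3% of promoters held, and no 2 of the motifs overlap there. The Parp4 promoter also held 1 GC box and, in addition, 2 overlapping matches to the interferon-stimulated element. Such matches describe the letters only.

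The libraries held markers of the labelled tissue. All 11 markers of striatal spiny projection neurons were detected, with a summed level of 5022 to 9117 CPM over the RNA-seq libraries. Markers of neighbouring tissue were also present. The summed level of cortical neuron markers was 783 to 1355 CPM in 16p11.2 and 76.4 to 940.03 CPM in 3g RNA-seq libraries. In all, 3 libraries stood apart. On an axis that runs from 0 at the mean of 3g wt females to 1 at the mean of 16p11.2 wt females, 3g wt male 17 lay at 0.824, against -0.078 to 0.18 for the other 15 libraries of its line. On the same axis 16p11.2 del/+ male 4 lay at 0.216, against 0.792 to 1.22 for the other 15. The library labelled 16p11.2 del/+ female 1 held 1417 counts of Ddx3y, which is on the Y chromosome, and 0.463 CPM of Xist, so it went against its labelled sex. Mvp values of del/+ against wt in RNA-seq that rest on these libraries are also given without them. Other results that hold these libraries, such as permutation tests and group means, are given without them only in part.

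Mvp, the shell protein of the vault and the member inside the deleted interval, was lower in 16p11.2 del/+ mice than in wt mice in both sexes. In RNA-seq of 16p11.2 males the wt libraries held 6.94, 7.98, 7.01 and 7.38 CPM and the del/+ libraries 3.11, 4.15, 3.35 and 3.86 CPM. The 2 groups did not overlap, and the library that stood apart, del/+ male 4, was inside the range of the other del/+ males. Mvp fell by 1.01 on the log2 scale (SE 0.150, 95% confidence interval -1.34 to -0.68, n = 4 and 4, adjusted p = 0.0380, edgeR quasi-likelihood test). This is a level of 0.497 times that of wt. A call was an adjusted p under 0.05, with Benjamini-Hochberg adjustment over all 17957 genes tested. Lower calls were made for 0.0947% of those genes, and 2.17% of them had every del/+ library below every wt library.

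**Figure D1:**
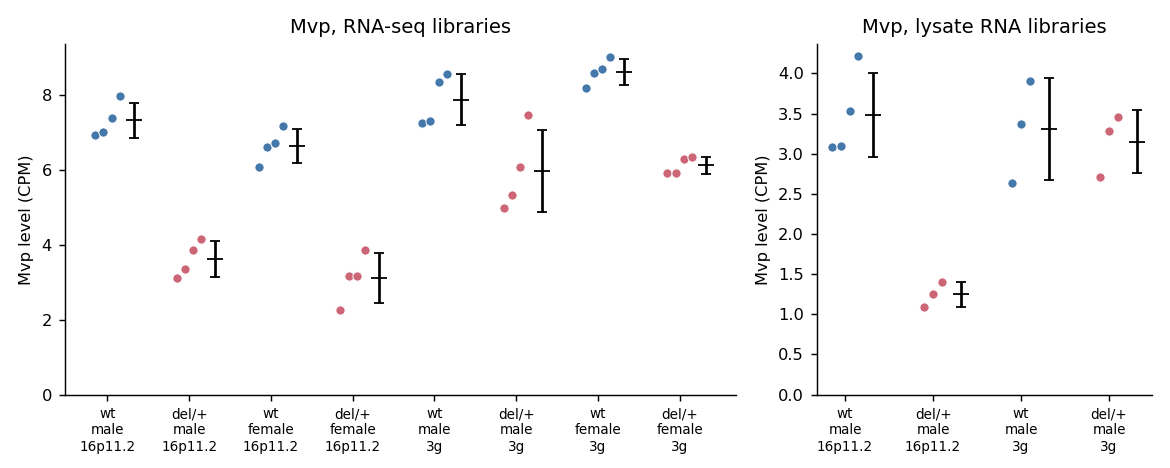
Mvp level in CPM in each library (points; blue, wt; red, del/+) with the group mean and SD beside it, for 4 libraries a group in RNA-seq (left) and 3 or 4 in lysate RNA (right). The 16p11.2 del/+ libraries lay at 2.25 to 4.15 CPM in RNA-seq and 1.09 to 1.40 CPM in lysate RNA, below every other library of the assay. The share of all genes that separate so across lines was not computed. The 3g del/+ females at 5.92 to 6.35 CPM lay below the 3g wt females.

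In 16p11.2 females the wt libraries held 6.73, 6.62, 7.16 and 6.07 CPM of Mvp and the del/+ libraries 3.16, 2.25, 3.17 and 3.87 CPM. The groups again did not overlap, with del/+ female 2 the lowest of all 32 libraries. Mvp fell by 1.09 on the log2 scale (SE 0.163, interval -1.45 to -0.73, adjusted p = 0.0250, edgeR), to 0.471 times the wt level, against lower calls for 0.111% of the genes tested and non-overlap of this kind for 1.67%. The exact permutation test of mean CPM gave p = 0.0286 in each sex, 2-sided, the smallest that 4 against 4 libraries allow. The difference between the sexes in this effect was -0.079 (interval -0.52 to 0.37, adjusted p = 0.953, edgeR interaction, 0% of genes called). It was -0.079 to -0.049 over 5 alternatives, among them a fit without the libraries that stood apart. With both sexes in a single fit, chosen after the data were seen, Mvp fell by 1.04 (interval -1.26 to -0.83, adjusted p = 9.63e-06, edgeR), where 0.153% of genes were called lower.

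The size of the effect in the 16p11.2 line moved little between fits, while its call did not hold in all of them. Leaving out any 1 of the 8 male libraries gave log2 values of -1.07 to -0.94 and adjusted p of 0.0586 to 0.226, so that no such fit called Mvp. In females 2 of the 8 such fits called it, with values of -1.21 to -0.96 and adjusted p of 0.0151 to 0.109. Without del/+ male 4 the male value was -1.04 (adjusted p = 0.0586, edgeR), and without del/+ female 1 the female value was -1.10 (adjusted p = 0.0877, edgeR). DESeq2 gave adjusted p of 3.63e-07 in males and 1.67e-07 in females, and the single fit of both sexes without these libraries gave -1.07 (adjusted p = 7.54e-05, edgeR). Beside the male result, all 6 markers of pericytes and mural cells (median log2 -0.36, summed level 126 to 200.2 CPM in del/+ against 148 to 289 CPM in wt) and all 6 astrocyte markers (median -0.15, 4100.4 to 4518 against 4177 to 5590 CPM) had negative values in 16p11.2 del/+ males. In the same males 5 of the 6 endothelial markers (median -0.19, 100 to 224 against 108 to 243 CPM) and all 3 choroid plexus markers tested (median -0.15) had negative values. So did 5 of 6 oligodendrocyte (median -0.15), 6 of 8 microglia (median -0.13) and 7 of 11 spiny projection neuron markers (median -0.11). Of the cortical neuron markers 3 of 6 were negative, and of the ependymal markers 3 of 5. Beside the female result, all 6 astrocyte markers (median 0.14, 4055 to 5275 against 3976 to 4587 CPM) and all 3 ependymal markers tested (median 0.37, sum over all 5 of 5.63 to 14.4 against 5.54 to 7.64 CPM) had positive values. In the same females 5 of the 6 endothelial markers had negative values (median -0.31, 83.5 to 113 against 98.5 to 135 CPM). None of these markers was called, none was at 0 in every library, and their part in the Mvp values was not tested.

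In lysate RNA the 16p11.2 del/+ males again had the lowest Mvp levels. The 4 wt males of the 16p11.2 line held 3.10, 3.53, 3.09 and 4.21 CPM, from 48 to 67 counts, and the 3 del/+ males 1.09, 1.26 and 1.40 CPM, from 16 to 21 counts. The groups did not overlap, which was so for 2.99% of the genes tested, and the exact permutation test gave p = 0.0286, the smallest that 4 against 3 allow. Mvp was 1.46 lower on the log2 scale (SE 0.262, interval -2.03 to -0.89), which did not pass the threshold (adjusted p = 0.0767, edgeR) where lower calls were made for 0.126% of 14330 genes. It passed in DESeq2 (adjusted p = 0.00618). In the same comparison all 6 cortical neuron markers had negative values (median -0.31) and all 4 ependymal markers tested had positive values (median 0.74), none of them called, and their part in the Mvp value was not tested.

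In the 3g line Mvp was lower in del/+ than in wt RNA-seq libraries, by less than in the 16p11.2 line. In males the wt libraries held 7.26, 8.35, 7.32 and 8.56 CPM and the del/+ libraries 4.98, 5.33, 6.07 and 7.46 CPM. The groups overlapped, because del/+ male 33 at 7.46 CPM was above wt males 17 and 26. The log2 difference was -0.37 (SE 0.136, interval -0.67 to -0.068, unadjusted p = 0.0212, adjusted p = 0.974, edgeR), and no gene was called in this comparison (0% of 19081, with 1.44% at an unadjusted p under 0.05 and 1 gene in DESeq2). Without wt male 17 it was -0.41. The 3g del/+ males had shallower libraries, of about 11711100 to 39716400 counts against 39301800 to 55912600 in wt males. The part of depth in the male Mvp value was not tested.

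In 3g females the wt libraries held 8.18, 8.59, 8.69 and 9.02 CPM and the del/+ libraries 6.35, 5.92, 5.92 and 6.29 CPM. Every del/+ female was below every wt female, which was so for 3.64% of the genes tested. Library depth also separated these groups, at about 24332600 to 36821100 counts in del/+ and 42289800 to 65529800 in wt females. The part of depth in the Mvp value was not tested. The log2 difference was -0.48 (SE 0.0625, interval -0.62 to -0.35), a level of 0.715 times wt, with adjusted p = 0.0663 (edgeR), where 0.00526% of genes were called. The call depended on the tool and filter: adjusted p was 3.27e-04 in DESeq2 and 0.00254 in edgeR without the filter on low counts. The difference between the sexes did not pass the test (-0.11, interval -0.41 to 0.19, adjusted p = 0.902, edgeR interaction, 0% of genes called), and both in a single fit gave -0.43 (interval -0.58 to -0.28, adjusted p = 0.0996, edgeR, 0.00517% of genes called lower), or -0.45 without wt male 17 (adjusted p = 0.0207, edgeR).

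Markers of other cells also had values away from 0 in the 3g libraries, although none was called. All 5 ependymal markers had negative values in 3g del/+ females (median log2 -1.69), with a summed level of 2.76 to 6.996 CPM against 6.989 to 11.5 CPM in wt. All 4 choroid plexus markers tested were negative too (median -1.23), and the sum over all 6 was 16.6 to 27.9 against 32.6 to 36.6 CPM. None of these markers was at 0 in every library. All 6 cortical neuron markers had positive values (median 0.75, summed level 196 to 673 CPM against 156 to 611 CPM). All 6 oligodendrocyte markers had negative values in 3g del/+ females (median -0.14, range -0.20 to -0.11), with a summed level of 5361 to 5999 CPM against 5554 to 7430 CPM in wt. In 3g males the ependymal median was -0.14 and the choroid plexus median 0.42. Negative values were held there by 1 of the 6 endothelial markers (median 0.23) and 1 of the 6 pericyte and mural markers (median 0.16). Of the 6 cortical neuron markers, 5 had negative values in 3g del/+ males (median -0.57), with a summed level of 157 to 389 CPM against 76.4 to 940.03 CPM in wt. The part of these cells in the Mvp values of either sex was not tested.

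**Figure D2:**
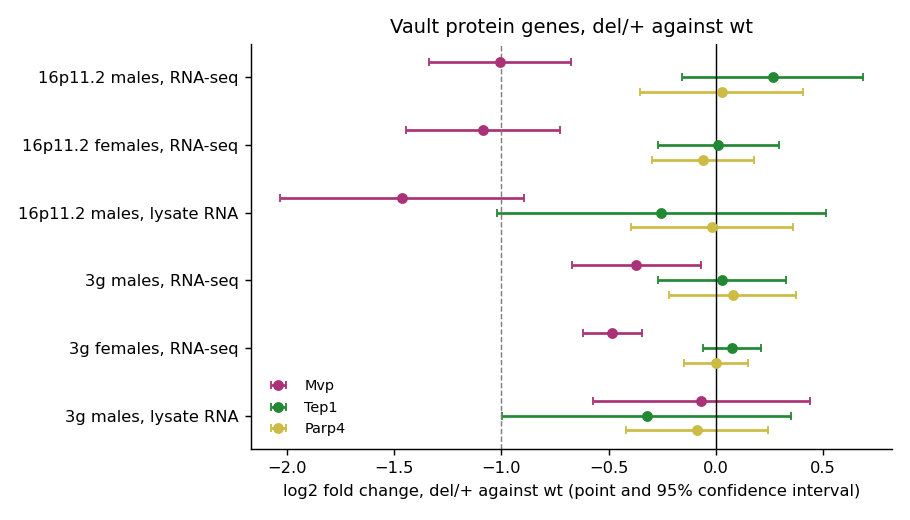
Log2 fold change of del/+ against wt with its 95% confidence interval (horizontal axis) for Mvp (purple), Tep1 (green) and Parp4 (yellow) in 6 comparisons; the solid line is no difference and the dashed line is -1. Mvp lay near the dashed line or below it in the 16p11.2 line and between the lines in 3g RNA-seq, and every Tep1 and Parp4 interval held 0.

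In 3g lysate RNA the genotypes overlapped. The 3 wt males held 2.64, 3.38 and 3.90 CPM and the 3 del/+ males 3.45, 2.70 and 3.29 CPM, from 46 to 70 counts each. All 3 del/+ values lay inside the wt range. The log2 difference was -0.067 (SE 0.236, interval -0.57 to 0.44, adjusted p = 0.987, edgeR, 0.0139% of genes called lower), and that interval also holds the male RNA-seq value of -0.37. In the same comparison all 6 endothelial (median -0.14) and all 3 ependymal markers tested (median -0.41) had negative values. All 6 cortical neuron (median 0.095) and all 3 choroid plexus markers tested (median 0.24) had positive values. None of them was called, and their part in the Mvp value was not tested.

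The copy number of the deleted interval gives a log2 value of -1, and the intervals of Mvp in the 16p11.2 line all held -1. In the 3g line none of the 3 intervals reached it. The difference between the lines in the effect on Mvp was -0.63 in males (interval -1.04 to -0.23, unadjusted p = 0.00424, adjusted p = 1.0, edgeR interaction) and -0.60 in females (interval -0.95 to -0.25, unadjusted p = 0.00194, adjusted p = 0.446). In lysate RNA it was -1.39 (interval -2.09 to -0.69, unadjusted p = 5.95e-04, adjusted p = 0.244). None of these 3 passed the adjustment, where 0.0770%, 0.128% and 0.122% of the genes tested were called. A fit of all 32 RNA-seq libraries, chosen after the data were seen, gave -0.62 (interval -0.86 to -0.38, adjusted p = 0.0108, edgeR), where 0.131% of 19886 genes were called, and -0.62 without the 3 libraries that stood apart (adjusted p = 0.0274, edgeR).

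The order of mean Mvp levels in RNA-seq set the wt groups first. It ran from 3g wt females (8.62 ± 0.349 CPM, SD, n = 4) through 3g wt males (7.87 ± 0.678), 16p11.2 wt males (7.33 ± 0.475) and 16p11.2 wt females (6.64 ± 0.450). Then came 3g del/+ females (6.12 ± 0.234), 3g del/+ males (5.96 ± 1.09), 16p11.2 del/+ males (3.62 ± 0.477) and 16p11.2 del/+ females (3.11 ± 0.665). Each pair of neighbours overlapped in range except 3g del/+ males and 16p11.2 del/+ males, which were separate. The share of all genes that separate between these groups was not computed. Levels across lines may also carry library batch, which the labels do not name. The difference of wt females and wt males did not pass the test in either line (log2 0.12, interval -0.085 to 0.32, in 3g and -0.15, interval -0.39 to 0.089, in 16p11.2, adjusted p = 0.948 and 0.968, edgeR), and 0.0308% and 0.0336% of genes were called in these comparisons.

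Mvp was next set among the genes of its interval. Of the 27 genes, 23 were tested in 16p11.2 RNA-seq of each sex, and 15 were called lower in males and 17 in females, with a median log2 value of -1.05 in both sexes against -0.0051 in males and -0.0012 in females over all genes tested. Mvp ranked 14 of 23 from the lowest in males and 6 of 23 in females. In lysate RNA 14 of 23 were called lower, the median was -1.04, and Mvp had the lowest value of the list. Taok2, a kinase of the MAPK cascades, was at -0.98 in males and -1.06 in females, and Sez6l2, a neuronal membrane protein, at -1.24 and -1.19.

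**Figure D3:**
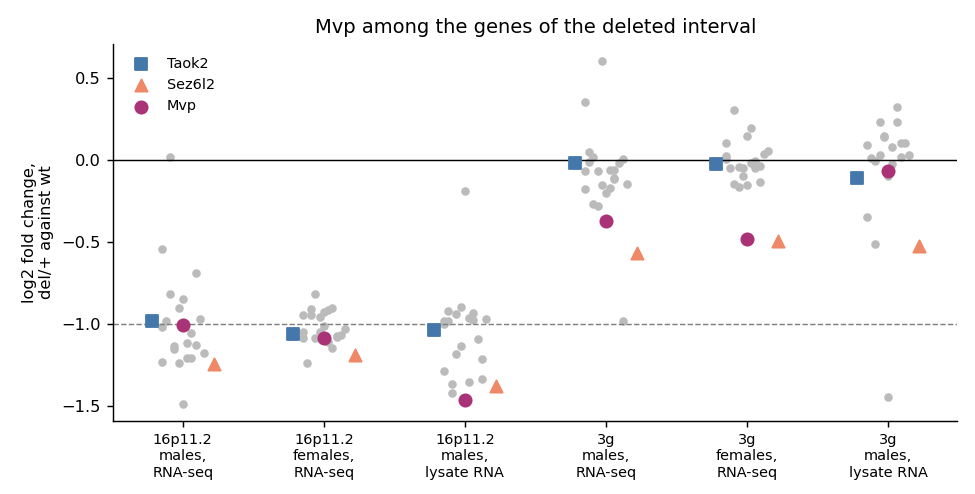
Log2 fold change of del/+ against wt (vertical axis) for the genes of the deleted interval that were tested in each of 6 comparisons; Mvp, Taok2 and Sez6l2 are marked and the others are grey. In the 16p11.2 line all but 1 gene in males lay below 0 and Mvp lay among or below them, and in the 3g line Mvp and Sez6l2 lay below most of the interval in RNA-seq while Taok2 lay near 0.

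In the 3g line the 3 mutated genes had unlike values. Sez6l2 was at -0.57 in males (interval -0.76 to -0.38, unadjusted p = 4.23e-05, adjusted p = 0.807, edgeR). It was at -0.49 in females (interval -0.59 to -0.39, adjusted p = 0.00336, edgeR) and at -0.53 in lysate RNA. The difference between the sexes in this effect was 0.085 (interval -0.11 to 0.28, adjusted p = 0.901, edgeR interaction, 0% of genes called). Taok2 was at -0.021 in males and -0.024 in females, with intervals of -0.19 to 0.15 and -0.095 to 0.047, and at -0.11 in lysate RNA (interval -0.34 to 0.12). Mvp thus lay near Sez6l2 in RNA-seq, at rank 3 of 24 and 2 of 23 tested genes of the interval from the lowest. In lysate RNA its value of -0.067 was nearer that of Taok2, but its confidence interval of -0.57 to 0.44 held the values of both genes. The median of the interval was -0.089 and -0.037 in RNA-seq of males and females, and 0.023 in lysate RNA.

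Parp4, the vault poly(ADP-ribose) polymerase, was not called in any comparison of genotypes. In 16p11.2 males the wt libraries held 6.74, 7.15, 8.96 and 8.40 CPM and the del/+ libraries 7.16, 6.55, 7.91 and 10.03 CPM. The highest value was that of del/+ male 4, which stood apart, and the groups overlapped. The log2 difference was 0.028 (interval -0.35 to 0.41), -0.11 without del/+ male 4, and -0.061 (interval -0.30 to 0.18) in females. In 3g the differences were 0.078 (interval -0.22 to 0.37) in males and 0.00059 (interval -0.15 to 0.15) in females. In lysate RNA Parp4 was at 7.20 to 11.3 CPM in 16p11.2 wt and 8.14 to 9.94 CPM in 16p11.2 del/+ males (log2 -0.018, interval -0.39 to 0.36), and the 3g difference was -0.088 (interval -0.42 to 0.25). The lowest adjusted p of the 6 comparisons was 0.9746 (edgeR).

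Tep1, the vault RNA-binding member, was not called either, and its value in 16p11.2 males rested on a single library. In 16p11.2 males the wt libraries held 6.40, 7.15, 7.89 and 6.60 CPM and the del/+ libraries 7.45, 8.14, 6.27 and 11.6 CPM. The value of 11.6 was again that of del/+ male 4. The log2 difference of 0.26 (interval -0.16 to 0.69, adjusted p = 0.758, edgeR) became 0.060 without it. In 16p11.2 females Tep1 was at 0.012 (interval -0.27 to 0.29), in 3g males at 0.030 (interval -0.27 to 0.33) and in 3g females at 0.075 (interval -0.059 to 0.21). In lysate RNA Tep1 had 14 to 54 counts a library, and its differences of -0.25 (interval -1.02 to 0.51) in 16p11.2 and -0.32 (interval -0.998 to 0.35) in 3g had the widest intervals of the 6. The intervals of Tep1 and Parp4 were narrowest in 3g females.

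**Figure D4:**
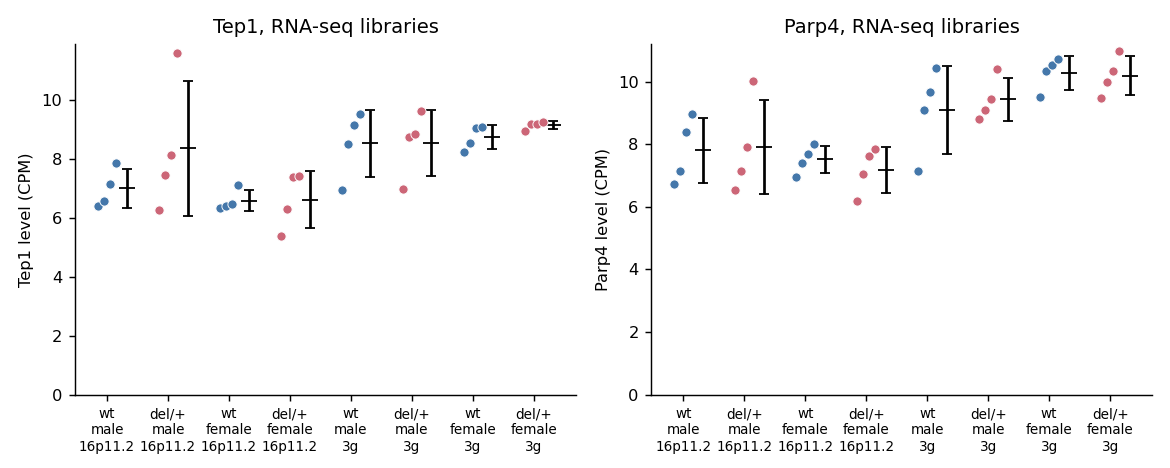
Tep1 (left) and Parp4 (right) level in CPM in each RNA-seq library (points; blue, wt; red, del/+) with the group mean and SD beside it, 4 libraries a group. Genotypes overlapped in every pair of groups, libraries of the 3g line tended to lie above those of the 16p11.2 line, and 16p11.2 del/+ male 4 was the highest 16p11.2 library for both genes, at 11.6 and 10.03 CPM.

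For Tep1 and Parp4 the order of mean levels followed the line and not the genotype. Tep1 had its 4 highest group means in 3g, from 9.15 ± 0.135 CPM (SD, n = 4) in del/+ females to 8.54 ± 1.13 in wt males, and its 4 lowest in 16p11.2, from 8.37 ± 2.29 in del/+ males to 6.59 ± 0.366 in wt females. Parp4 ran from 10.3 ± 0.538 in 3g wt females to 9.09 ± 1.40 in 3g wt males, and from 7.91 ± 1.52 in 16p11.2 del/+ males to 7.18 ± 0.730 in 16p11.2 del/+ females. Each group overlapped in range with its neighbour in the order. 3g wt male 17, which lay near the 16p11.2 libraries on the axis above, had the lowest Parp4 (7.15 CPM) and Tep1 (6.97 CPM) of the 3g line, and 16p11.2 del/+ male 4, which lay near the 3g libraries, the highest of its line. The libraries of each line were deposited as a separate table and the labels name no batch, so line and any library batch cannot be told apart. The summed cortical neuron markers given above also tended to be higher in 16p11.2, as did oligodendrocyte and astrocyte sums. Endothelial and mural sums tended to be higher in 3g. Endothelial sums were 83.5 to 113 (del/+) and 98.5 to 135 CPM (wt) in 16p11.2 females. In 3g females they were 210 to 223 and 207 to 226 CPM. For all these sets the lines were separate in females and overlapped in males, and the part of these cells was not tested. In lysate RNA the line order recurred for neither gene. Tep1 ran from 2.54 ± 0.421 CPM in 3g wt males (n = 3) through 2.04 ± 0.4997 in 16p11.2 wt males (n = 4) and 2.03 ± 0.811 in 3g del/+ males (n = 3) to 1.69 ± 0.774 in 16p11.2 del/+ males (n = 3). The Parp4 group means were 9.46 ± 1.84 and 9.29 ± 0.995 CPM in 16p11.2 and 8.48 ± 1.05 and 7.98 ± 0.781 CPM in 3g.

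Within groups the members varied together to different degrees. Over the 32 RNA-seq libraries, as deviations from group means on the log2 scale, Pearson's r was 0.51 for Mvp and Tep1, 0.21 for Mvp and Parp4 and 0.63 for Parp4 and Tep1. Without the 3 libraries that stood apart these were 0.55, 0.067 and 0.19, so that the value for Parp4 and Tep1 rested largely on those libraries and that for Mvp and Tep1 did not. These points share library depth and composition, and 1.61% of 20342 genes had a higher r with Mvp than Tep1 had. The gene most like Mvp in this way was Acot8, a peroxisomal acyl-CoA thioesterase (r = 0.73 over 32 libraries and 0.83 over 29). Mapk7, the kinase ERK5, was at rank 2 over the 32 libraries (0.72) and rank 4 over the 29 (0.74). For Tep1 the nearest was Ncapd2, a condensin subunit (0.90 and 0.80), and for Parp4 the nearest with a known product was Stab1, a scavenger receptor of macrophages (0.89 and 0.78).

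Footprints of the vault genes were few. Across the 13 libraries each member had 0 to 9 footprint counts, and Mvp had 0 counts in 2 of the 4 16p11.2 wt males and in 1 of the 3 del/+ males. A count of 0 allows up to 8.75 and 6.52 CPM in the 2 wt libraries and 8.52 CPM in the del/+ library, which lies within the 2.16 to 12.3 CPM of the libraries that had counts, and such limits cover counting error only. All 3 genes failed the filter on low counts in the comparisons of footprints alone. Without the filter the log2 difference of del/+ and wt Mvp footprints was -0.35 (interval -2.44 to 1.74) in 16p11.2, from 4 counts in del/+ and 9 in wt males, and -0.00021 in 3g, from 13 and 9 counts. No interval is given for the 3g value, because its fitted SE of 0.262 was below those of Tep1 (0.755) and Parp4 (0.736) in the same fit. A decrease in Mvp footprints of the size seen in RNA was not detectable at this depth in either line.

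Translational efficiency is the footprint level relative to the RNA level of the same lysate. In the 16p11.2 line the genotypes differed in Mvp translational efficiency by 0.99 on the log2 scale with an interval of -1.33 to 3.31 (adjusted p = 0.937, edgeR interaction), and in the 3g line by 0.019 (interval -1.54 to 1.57, adjusted p = 1.0). The intervals were -2.09 to 1.56 and -1.05 to 2.05 for Tep1, and -1.78 to 1.86 and -1.55 to 1.40 for Parp4. Leaving out 1 animal moved the 16p11.2 Mvp value to between 0.63 and 1.80, the highest without the wt male that had 5 Mvp footprint counts. In the 16p11.2 comparison 0.00664% of 15071 genes were called, and in 3g 0%.

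**Figure D5:**
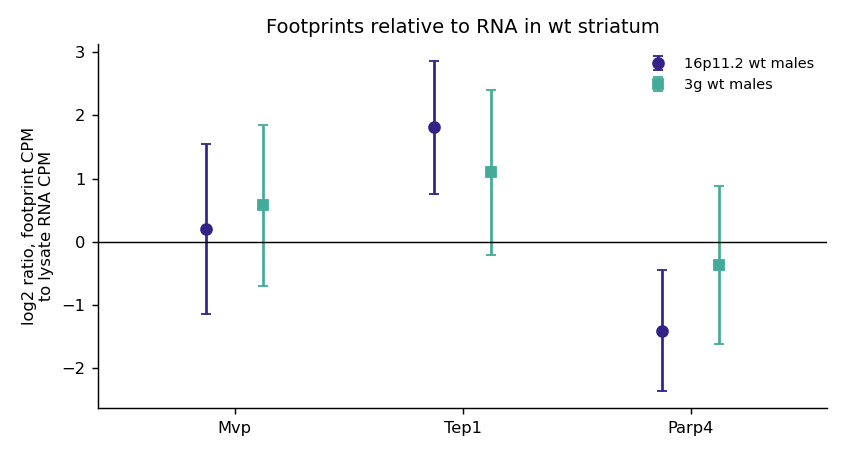
Log2 ratio of footprint to lysate RNA level (vertical axis, CPM scale of each assay) with its 95% confidence interval for each vault gene in wt males of the 16p11.2 line (circles, 4 animals) and the 3g line (squares, 3 animals). Tep1 lay highest and Parp4 lowest in both lines, and only the 16p11.2 values of these 2 genes had intervals that did not hold 0.

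Within wt mice the footprint share of each member was set against that of the average gene, and the members were not tested against each other. The 16p11.2 wt values rest on 16 Tep1, 8 Parp4 and 9 Mvp footprint counts in all. Tep1 had more footprints for its RNA than the average gene in 16p11.2 wt males, with ratios of 5.91, 5.01, 5.34 and 2.23 in the 4 animals (log2 1.81, interval 0.75 to 2.87, adjusted p = 0.00607, edgeR), a higher value than 93.5% of genes. Parp4 had fewer, with ratios of 0.333, 0.437, 0.905 and 0.369 (log2 -1.40, interval -2.36 to -0.44, adjusted p = 0.0170, edgeR), above only 9.22% of genes. Leaving out any 1 of the 4 animals kept the call of Tep1, while 3 of the 4 such fits lost that of Parp4 (adjusted p of 0.0146 to 0.0938, edgeR). In this comparison 46.6% of 13682 genes were called, so a call alone sets neither gene apart. In 3g wt males neither was called (44.3% of genes were): Tep1 was at 1.10 (interval -0.21 to 2.41, adjusted p = 0.162), above 82.9% of genes, and Parp4 at -0.37 (interval -1.62 to 0.88, adjusted p = 0.636), above 38.5%. Without the 3g wt male that had 1 Mvp footprint count, Tep1 was at 0.34 and Parp4 at -1.75, and leaving out each animal in turn gave 0.34 to 1.42 for Tep1 and -1.75 to 0.28 for Parp4. Whether the lines differ in these ratios was not tested. Mvp was at 0.20 in 16p11.2 (interval -1.14 to 1.54, above 58.8% of genes) and 0.58 in 3g (interval -0.70 to 1.85, above 69.5%), and leaving out each animal in turn gave -0.58 to 0.59 and 0.16 to 1.01. Ro60, the other protein with a TROVE domain, had few footprints for its RNA in both lines (log2 -1.49 and -2.36, adjusted p = 1.45e-06 and 1.48e-05, edgeR).

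The vault RNA itself, Vaultrc5, was at the limit of detection. It had 0 to 4 counts a library, 42 in all over the 32 RNA-seq libraries, and was at 0 in 8 of them, and it was not in the lysate and footprint tables. At this depth no genotype difference is given for it.

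Of 10 vault partners, 9 were tested, and in the 16p11.2 line 1 was called lower in each sex and in lysate RNA. This was Mapk3, the kinase ERK1, which is itself in the deleted interval (log2 -1.21, -0.90 and -0.93, adjusted p = 0.00128, 0.00187 and 0.0107, edgeR). No other partner tested was called, among them the La protein gene Ssb, the kinase gene Src and the RNA methyltransferase gene Nsun2. In 3g RNA-seq 0 of 9 were called in either sex, where 0% and 0.00526% of all genes tested were called. In the 16p11.2 comparisons 0.0947%, 0.111% and 0.126% of all genes tested were called lower.

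Of 10 genes of the telomerase ribonucleoprotein, with which Tep1 was first found, 9 were tested in every RNA comparison and 0 were called in either direction, with medians of -0.13 and -0.024 in 16p11.2 males and females and -0.041 and -0.022 in 3g. All 15 other PARP family genes were tested and 0 were called in any of the 6 RNA comparisons, with medians of 0.027, 0.074, 0.12 and 0.057 in RNA-seq of 16p11.2 males, 16p11.2 females, 3g males and 3g females. Over all genes tested, 0% (3g males) to 0.144% (16p11.2 females) were called in these 6 comparisons, so 0 calls do not set these lists apart. The PARP family value farthest from 0 in RNA-seq was that of Parp14, an interferon-inducible member, in 3g females (0.40, interval 0.092 to 0.72, adjusted p = 0.354, edgeR). Ro60 was at 0.024 to 0.10 in the 4 RNA-seq comparisons, with adjusted p of 0.889 to 0.998.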

How the data were processed

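Whole-number counts per gene were used as deposited. Per the labels and the methods, the authors made the RNA-seq counts with the bcbio-nextgen pipeline (the submitters' processing notes name HTSeq and mm10) and the lysate RNA and footprint counts with Bowtie2 (mm39); versions and annotation are not given in the sources used here. Symbols were matched by gene identifier. CPM was computed from these counts with TMM factors. Genotypes were compared with edgeR 4.0.16 in R 4.3.3 (filterByExpr, TMM, glmQLFit, glmQLFTest, Benjamini-Hochberg over all genes tested, call at an adjusted p under 0.05), separately for each sex, line and assay, with interaction terms for sex, line and translational efficiency and exact permutation of single values. Footprint and lysate libraries with 1 number came from the same lysate, per the labels, and the animal block was an alternative. DESeq2 1.42.0, RLE factors, no filter, a threshold of 0.1, all libraries of a line, replicate and animal blocks, and each library left out were the other alternatives. Scripts were tested on simulated counts. Text names the members, the 3g target genes, and genes of fixed lists given by counts; Acot8, Mapk7, Ncapd2 and Stab1 were named by likeness, and Parp14 and Mapk3 after their values were seen. Members and lists were chosen with earlier results of these data known. Labels do not say more of the separate animals than their numbers. PCR reads without molecular identifiers are not independent molecules, so limits cover counting error only. Pairs of replicate libraries all differed by more than sampling noise. Values of some listed genes are not reported here.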

Additional observations from a re-analysis of the deposited data

Results flagged for a closer look

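One result was marked by a test of a difference between the 2 lines. Mvp fell by 0.62 more on the log2 scale in 16p11.2 del/+ than in 3g del/+ mice in the fit of all 32 RNA-seq libraries (-0.62, SE 0.119, adjusted p = 0.0108, edgeR interaction). The del/+ libraries lay at 2.25 to 4.15 CPM in the 16p11.2 line and at 4.98 to 7.46 CPM in the 3g line. Mean wt levels were also lower in 16p11.2, at 6.64 and 7.33 CPM against 7.87 and 8.62 CPM in 3g. Levels across lines may carry library batch as well, which the labels do not name, and the share of all genes that separate in this way was not computed. This fit was chosen after the data were seen, and the fits of each sex alone did not pass the adjustment. No library stood out from its group by the gap test in the 30 groups of 4 libraries tested, where chance marks about 5% of groups.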

How the results depend on the processing

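All Mvp values of genotype kept their sign under the 41 alternatives that did not leave out single replicates, while calls near the threshold moved, and the cause was not tested. The threshold of 0.1 reuses the main fit and could not change a value, and a fit of both sexes was entered under each sex. The 41 are therefore not separate checks of the sign. With the replicate number as a block, Mvp was at -1.02 (adjusted p = 0.180, edgeR) in 16p11.2 males and -1.10 (0.0859) in females and was not called. Correlations of same-numbered deviations were -0.256 to 0.071 in males and -0.012 to 0.107 in females. They were not compared with those of unlike numbers, so they do not show whether the numbers pair these samples. Footprint and lysate libraries of 1 animal are paired, and the animal block changed no member's call. Without the libraries that stood apart, Mvp was at -1.04 in 16p11.2 males and -1.10 in females, not called. At a threshold of 0.1, Mvp was called in 16p11.2 lysate RNA (-1.46) and 3g females (-0.48), as with DESeq2 (-1.47 and -0.48), and in 3g females without the filter (-0.49). In 3g, both sexes without wt male 17 gave -0.45 (called), and the line difference over both sexes was -0.62 with and -0.62 without the libraries that stood apart.

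Counts of genes called changed as follows. DESeq2 called 37 (19 by edgeR) in 16p11.2 males, 50 (26) in females, 32 (19) in lysate RNA, 1 (0) in 3g males, 109 (1) in 3g females and 13 (3) in 3g lysate RNA. Without the filter there were 45 in 16p11.2 females, 158 in 3g females and 9 in 3g lysate RNA, and at 0.1 there were 2 and 7 in the last 2. Both sexes in a fit gave 33 in 16p11.2, also without the libraries apart, and 1 in 3g, or 2 without them. All 16 libraries of the line gave 1 in 3g males.

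Parp4 and Tep1 values near 0 changed sign. Parp4 became -0.014 with both sexes, -0.11 with both sexes without the libraries apart and -0.11 without them in 16p11.2 males. It became -7.51e-05 with all 16 libraries, -0.0095 without the filter and -0.011 with both sexes without the libraries apart in 3g females, and -0.026 and, with both sexes, -0.011 without those libraries in 3g males. Without them, Parp4 by sex became 0.0071 in 16p11.2 and 0.027 in 3g. Tep1 became -0.047 in 16p11.2 females, -0.057 in 3g males and -0.072 in 3g wt females against males. Tep1 by line was 0.088 over both sexes, or -0.0031 without the libraries apart.

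With each replicate left out in turn, genes called ranged from 10 to 19 in 16p11.2 lysate RNA (10 without 1 of the del/+ males), from 3 to 12 in 3g lysate RNA, from 0 to 1 in 3g males and from 1 to 175 in 3g females (175 without wt female 39 and 18 without del/+ female 37, the fits that called Mvp). Mvp ranged from -1.07 to -0.94 in 16p11.2 males, -1.21 to -0.96 in 16p11.2 females, -0.50 to -0.46 in 3g females, -0.21 to 0.069 in 3g lysate RNA, -0.58 to 0.59 for footprints against RNA in 16p11.2 wt, -0.20 to 0.053 and -0.16 to 0.0063 by sex in 16p11.2 and 3g, and -0.47 to 0.43 for 3g translational efficiency. Parp4 ranged from -0.11 to 0.12 in 16p11.2 males, -0.11 to 0.0010 in 16p11.2 females, -0.026 to 0.16 in 3g males, -0.042 to 0.043 in 3g females and -0.13 to 0.072 in 16p11.2 lysate RNA. It ranged from -0.13 to 0.00038 by sex in 16p11.2 wt, -0.18 to 0.070 and -0.15 to 0.027 for genotype by sex, and -0.18 to 0.054, -0.10 to 0.0067 and -0.039 to 0.17 by line in males, females and lysate RNA. For footprints against RNA it ranged from -1.74 to -1.22 and -1.75 to 0.28, and for translational efficiency from -1.57 to 0.58 and -0.72 to 1.29, in 16p11.2 and 3g. Tep1 ranged from -0.049 to 0.10 in 16p11.2 females, -0.057 to 0.091 in 3g males, -0.67 to 0.013 in 16p11.2 lysate RNA, -0.072 to 0.082 by sex in 3g wt, -0.012 to 0.13 for 3g genotype by sex, -0.12 to 0.034 and -0.36 to 0.39 by line in females and lysate RNA, and -0.87 to 0.091 for 16p11.2 translational efficiency. Footprint depth, with at most 9 counts of a member in a library, limits every footprint value.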
